A study of Mus musculus with 14 samples.

Results

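Spleens of mice whose ear skin had been injected with interleukin-23 (IL-23) were compared with spleens of control mice by RNA sequencing of whole tissue. The comparison rests on 6 libraries of 14 in the series, 3 from IL-23-ear mice and 3 from control mice, and it takes every entry of the count table that carries a gene name, which is 22116 of 22740. Of these, 15159 had enough counts to test. All mice were female wild type BALB/c of 6 to 8 weeks, and each gave 1 library. IL-23-ear mice had received 1 µg of recombinant mouse IL-23 per ear into the skin, as 4 injections over 7 days. Imiquimod-ear and imiquimod-dorsal mice, 4 of each, had received a 5% cream of imiquimod, an agonist of Toll-like receptor 7, daily for 5 days on the ear or on the back. Control mice had petrolatum on back and ears. The series' design text calls them untreated, and none of the labels describes an injection of carrier into control ears, so the injection and the IL-23 in it cannot be told apart here.

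IL-23 is a cytokine made mainly by dendritic cells and macrophages from the subunits Il23a and Il12b. It binds a receptor made of Il23r and Il12rb1 on type 17 T cells, γδ T cells and innate lymphoid cells, acts through the kinases Jak2 and Tyk2 and the factor Stat3, and sustains secretion of IL-17A, IL-17F and IL-22. In mouse ear skin it is used to raise a psoriasis-like thickening. The spleen is a distant lymphoid organ in this model, made up largely of B cells, T cells, red pulp macrophages and red cell precursors.

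Few genes differed between IL-23-ear and control spleens. Genes of the cytosolic ribosome and genes encoded by the mitochondrial genome were slightly higher in IL-23-ear spleens, those that passed the test by 0.33 to 0.44 on the log2 scale, and 1 enzyme gene, Phykpl, was lower. In edgeR's quasi-likelihood test over 15159 genes, 8 passed an adjusted p of 0.05, or 0.0528%: 7 rose, 1 fell and none changed by 2-fold. At an unadjusted p under 0.05, 867 genes (5.72%) were higher and 438 (2.89%) were lower in IL-23-ear spleens. In 1478 genes (9.75%) all 3 IL-23-ear libraries lay above all 3 controls, and in 1058 (6.98%) all 3 lay below.

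The libraries held 33888595 to 35456180 counts over named genes in the IL-23-ear group and 28354674 to 35086665 in the control group, with 16129 to 16271 and 16048 to 16266 genes detected. Levels are given as TMM-scaled CPM (counts scaled to library size and between libraries), as mean ± SD or library by library, and changes as log2 fold changes of IL-23-ear over control. The labels call the samples biological replicates of 1 batch. The tissue label held on its defining markers: the B cell list summed to 7110 to 7523 CPM in IL-23-ear and 7180 to 7571 CPM in control libraries, and Cd3e of T cells lay at 153.1 to 170.3 CPM in IL-23-ear and 92.56 to 148.5 CPM in control libraries, while the pancreas list summed to 10.52 to 14.07 CPM in IL-23-ear and 9.977 to 13.8 CPM in control libraries and the adipose list to 92.86 to 114.1 and 110.1 to 167.2 CPM. The red pulp macrophage list summed to 2508 to 2777 CPM in IL-23-ear and 2507 to 2846 CPM in control libraries. For the marginal zone macrophage list the sums were 329.8 to 393.0 and 316.6 to 353.8 CPM. The skeletal muscle list summed to 4.899 to 34.2 CPM in IL-23-ear, highest in IL-23-ear 2, and to 6.112 to 8.21 CPM in control libraries. Control 5 held the 167.2 CPM of the adipose list. The 9 tested adipose genes had a median log2 fold change of -1.33, and of -0.09 without control 5. Since whole tissue was used, fewer cells of a type and less RNA per cell cannot be told apart.

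The ribosomal genes that rose were Rps14, Rps15 and Rps24, all of the small subunit. Ribosomal protein mRNAs are known for a terminal oligopyrimidine tract, a run of C and T at the very start of the transcript through which their translation is controlled together. The bases around an annotated start, 15 on either side, are shown for 2 of the genes that rose and for Rps27 and Rps9, which did not pass and were picked after their values were seen, to let that start be read. Capitals mark a run of at least 8 bases of C or T that reaches within 5 bases of the start. Where a gene had several annotated starts, the first with such a run was taken, so the starts shown were picked for the run. The sequences are from RefSeq on GRCm38.p6, at chr14:24490663-24490692 (plus strand) for Rps24, chr10:80292416-80292445 (plus) for Rps15, chr3:90213634-90213663 (minus) for Rps27 and chr7:3704026-3704055 (plus) for Rps9.
Rps24: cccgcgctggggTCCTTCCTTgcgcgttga
Rps15: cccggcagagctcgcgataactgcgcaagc
Rps27: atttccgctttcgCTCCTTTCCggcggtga
Rps9: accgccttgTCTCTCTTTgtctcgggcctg
Such a run, searched on the gene's own strand, was found at 23 of 58 cytosolic ribosomal protein genes with an entry (39.7%) and at 1390 of 11450 tested genes with an entry (12.1%). A gene was counted if any of its annotated starts had a run. No annotated start of Rps15 had such a run. A match is a description of the letters and no measure of translation.

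Rps14 had 983, 1004 and 968.3 CPM in IL-23-ear libraries 1, 2 and 3, against 703.6, 718 and 752 CPM in control libraries 2, 4 and 5. All 3 IL-23-ear values lay above all 3 controls, and the log2 fold change was 0.44 ± 0.06 (SE) with a 95% interval of 0.31 to 0.58 (edgeR adjusted p = 0.0450). Rps15 (chr10:80128249-80129955 on GRCm39) had 1163, 1262 and 1190 CPM in IL-23-ear spleens, against 973.4, 922.4 and 960 CPM in controls. Rps24 (chr14:24537193-24547028 on GRCm39) had 1383, 1485 and 1455 CPM in IL-23-ear spleens, against 1189, 1120 and 1125 CPM in controls. Their log2 fold changes were 0.34 ± 0.05 and 0.33 ± 0.05, at the same adjusted p, and neither pair of groups overlapped.

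The mitochondrial genes that rose were mt-Co2 and mt-Co3, subunits of cytochrome c oxidase, mt-Atp6 of the ATP synthase and mt-Nd3 of complex I. mt-Co2 had 2504, 2486 and 2536 CPM in IL-23-ear libraries, against 1915, 1972 and 1753 CPM in controls, a log2 fold change of 0.42 ± 0.06 (interval 0.29 to 0.54, edgeR adjusted p = 0.0450). The IL-23-ear values spanned a narrower range than the controls and did not overlap them. mt-Atp6 averaged 2483 ± 44.7 CPM in IL-23-ear and 1887 ± 119 CPM in control spleens, mt-Co3 averaged 2251 ± 38.6 and 1752 ± 65.8 CPM, and mt-Nd3 averaged 116 ± 4.36 and 87.6 ± 3.96 CPM (SD, n = 3 each). Their log2 fold changes were 0.40, 0.36 and 0.40. mt-Atp6 and mt-Co3 abut at position 8607 of the mitochondrial genome, and counting of reads across such borders, or from ribosomal pseudogenes, is not given in the sources used here, so the values of single genes in both families are uncertain.

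Phykpl (chr11:51475574-51495323 on GRCm39), the phospho-lyase that breaks down phosphorylated hydroxylysine in mitochondria, was the only gene that fell. It had 8.69, 9.21 and 8.38 CPM in IL-23-ear libraries, against 15.9, 14.4 and 14.2 CPM in controls. The groups did not overlap, and the log2 fold change was -0.76 ± 0.12 (interval -1.02 to -0.50, edgeR adjusted p = 0.0450). Its interval reached the largest fold of the 8 genes, 2.02.

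All 8 adjusted p-values lie at 0.0450, close to the threshold, and no call was kept when any 1 of the 6 libraries was left out. The 8 genes passed also in DESeq2, which called 132, and in limma-voom, which called 14, but none passed in a fit of the 6 libraries alone, where the smallest adjusted p was 0.0524 and 1456 genes had an unadjusted p under 0.05.

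**Figure D1:**
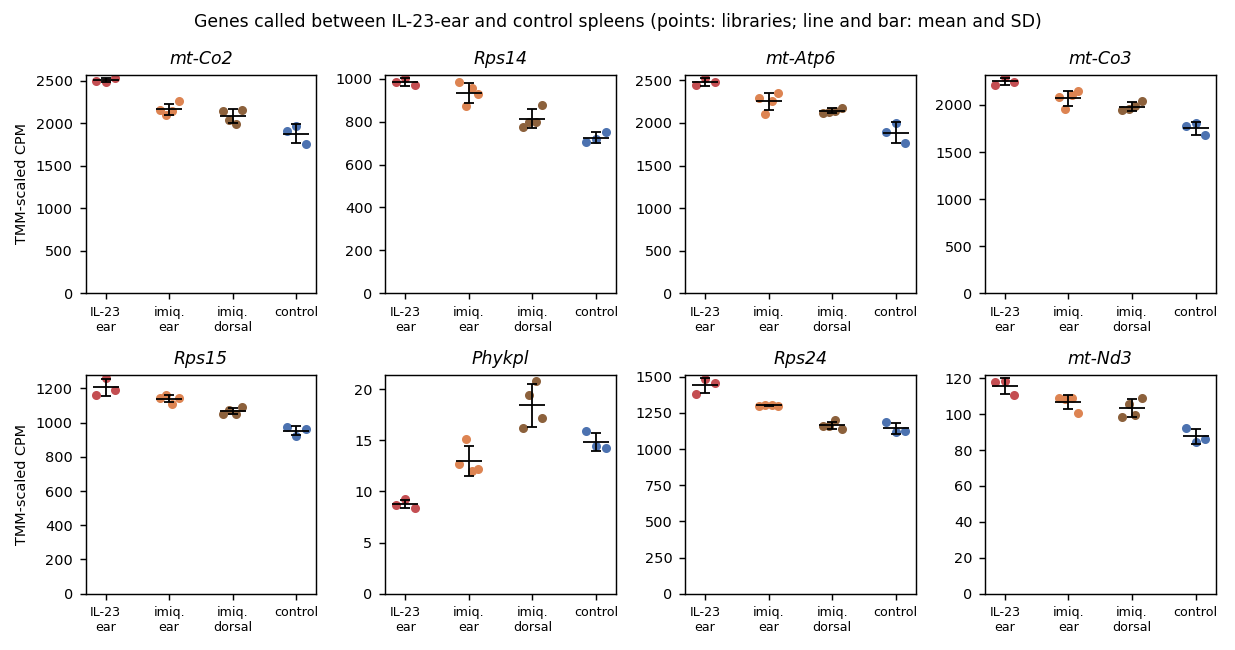
TMM-scaled CPM (vertical axes, from 0) of the 8 genes called between IL-23-ear and control spleens, in IL-23-ear, imiquimod-ear, imiquimod-dorsal and control libraries. Points are libraries and bars are mean and SD (n = 3 for IL-23-ear and control, n = 4 for each imiquimod group). In each gene the 3 IL-23-ear points lie on one side of the 3 control points.

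Genes that came close to passing belonged largely to the same families. Of the 31 genes with an adjusted p under 0.1, 18 were cytosolic ribosomal protein genes and 8 were mitochondrially encoded, and 30 of the 31 were higher in IL-23-ear spleens. The next by p that did not pass were Tbca, a tubulin folding cofactor, at 0.39, Rps27 at 0.41, mt-Nd4 at 0.35, Rps21 at 0.35, Rpl37a at 0.36, Rps9 at 0.29 and Rpl9 at 0.32 (edgeR adjusted p = 0.0571 for each). Rpl19, mt-Cytb and Rpl13a followed at 0.29, 0.33 and 0.30 (edgeR adjusted p = 0.0802), then Rps23 at 0.32 (0.0809) and mt-Co1 at 0.33 (0.0822).

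The list of cytosolic ribosomal protein genes was drawn up after these values were seen. All 79 members were tested: 3 rose, and 78 had a log2 fold change above 0, against 52.5% of all tested genes. Their median log2 fold change was 0.29, beside 0.01 over all tested genes. In 70 of 79 the groups did not overlap, with IL-23-ear higher, against 9.75% of all tested genes. Together the 79 genes took 6.32% to 6.50% of the counts in IL-23-ear libraries and 5.35% to 5.70% in control libraries. Of the 11 listed mitochondrially encoded genes, 3 rose, all 11 lay above 0 without overlap, and the median was 0.33; mt-Nd3, which also rose, is not on that list. Genes of the mitochondrial genome took 3.46% to 3.60% of the counts in IL-23-ear and 2.75% to 3.06% in control libraries. Left-out libraries moved the list medians to between 0.25 and 0.32 for ribosomal and between 0.27 and 0.36 for mitochondrially encoded genes.

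Nuclear genes of the same machines, also listed after values were seen, leaned the same way without any call. Among 78 tested nuclear respiratory chain genes the median was 0.20 and 26 had an unadjusted p under 0.05, all higher, against 5.72% of all tested genes. The count of 26 was 8 without control 2 or without control 4, 11 without IL-23-ear 2 and 45 without control 5. Among 78 mitochondrial ribosomal protein genes the median was 0.165 and 16 were higher at that level, with a median of 0.09 and 9 genes without control 2, 10 genes without IL-23-ear 3, and a median of 0.24 and 31 genes without control 5. Short transcripts in general were higher in IL-23-ear libraries. At 1 CPM or more, the median log2 fold change was 0.15 in 311 genes with transcripts under 600 bases and -0.04 in 3774 genes over 4800 bases, and Spearman's rho between length and log2 fold change was -0.294 over 13287 genes, which share their libraries and are not independent. The median transcript length was 1051 bases for the ribosomal and 957 bases for the mitochondrial list. With each library's trend on length removed, no gene was called, the ribosomal median was 0.20 with 50 of 79 higher at an unadjusted p under 0.05, and the mitochondrial median was 0.24 with 9 of 11. The respiratory chain median was then 0.11 with 7 of 78, and that of mitochondrial ribosomal protein genes 0.11 with 10 of 78. This correction was chosen after seeing the data, and the part of the length trend in the differences was not tested further.

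**Figure D2:**
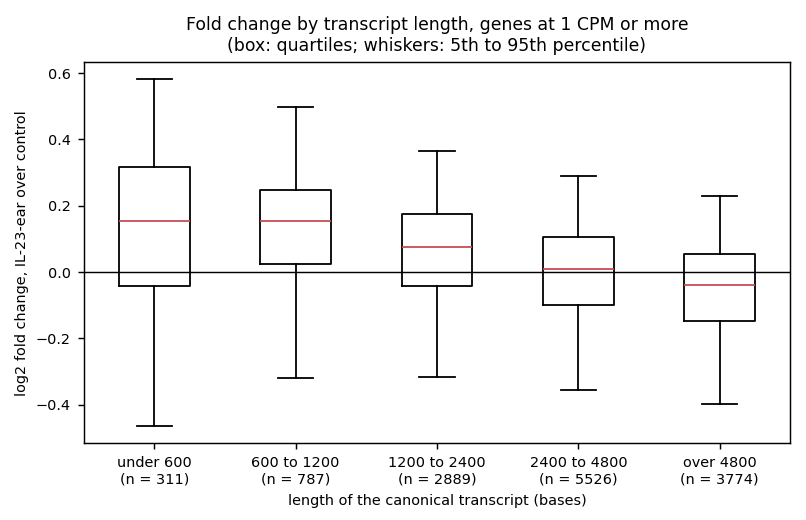
Log2 fold change of IL-23-ear over control (vertical axis) by length of the canonical transcript in bases (horizontal axis), for genes at 1 CPM or more; boxes are quartiles, the line is the median and whiskers run from the 5th to the 95th percentile. The medians are alike in the 2 shortest bins and lower in each longer one, at 0.15, 0.16, 0.08, 0.01 and -0.04.

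How large a change the data leave possible was read from each gene's 95% interval. The farther bound of that interval, as a fold in either direction, had a median of 1.38 over all tested genes, with a 10th percentile of 1.17 and a 90th of 2.88. The whole interval lay within 2-fold in 12118 genes (79.9%), within 1.5-fold in 9281 (61.2%) and within 4-fold in 14201 (93.7%). In a pair of one-sided tests against 2-fold, adjusted over all genes, 12499 genes (82.5%) passed as changed by less than 2-fold. The intervals are per gene and not adjusted for the number of genes.

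The bound depended on the level of a gene. Among 2092 genes over 100 CPM, 96.8% of intervals lay within 2-fold and the median bound was 1.24-fold. Among 7681 genes at 10 to 100 CPM the values were 96.7% and 1.28-fold, and among 3518 at 1 to 10 CPM they were 72.4% and 1.71-fold. Among 1868 genes under 1 CPM, 6.32% lay within 2-fold and the median bound was 3.42-fold. A gene of median spread would have had to change by 1.90-fold to be called.

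**Figure D3:**
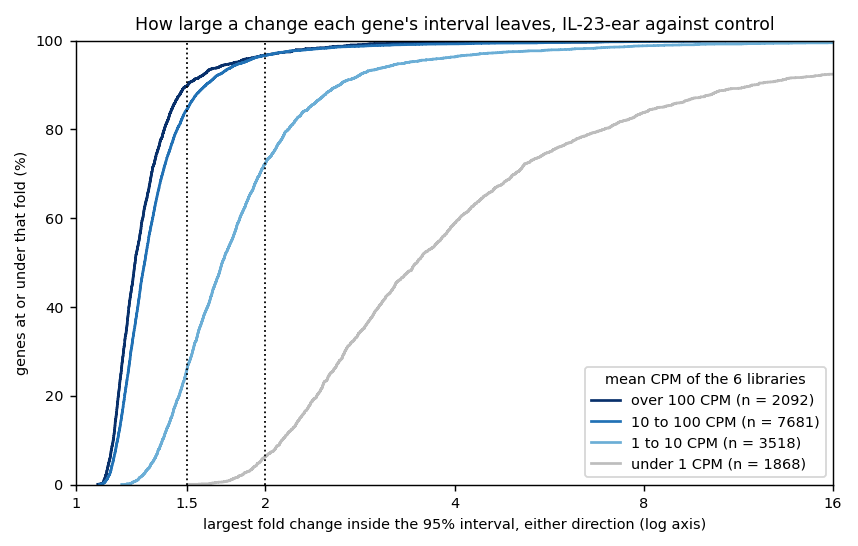
Share of genes (vertical axis, %) whose 95% interval stays at or under a given fold in either direction (horizontal axis, log scale), for 4 bins of mean CPM. The dotted lines mark 1.5-fold and 2-fold; at 2-fold the curves stand at 96.8%, 96.7%, 72.4% and 6.32% from the highest to the lowest bin.

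No IL-23 pathway gene was called, beside 8 of all 15159 tested genes (0.0528%), so a list of this size would rarely hold a call. That share applies equally to the lists below. Among ligand and receptor genes 10 of 11 were tested and 6 had intervals within 2-fold, against 79.9% of all tested genes. Il23r, the receptor chain particular to IL-23, had 1.07, 0.457 and 1.09 CPM in IL-23-ear libraries, against 0.857, 0.832 and 0.363 CPM in controls. The groups overlapped, at 0.35 with an interval of -0.62 to 1.33, so up to a 2.51-fold difference lay inside it. Il12rb1, its partner, stood at -0.24 (interval -0.75 to 0.28). Il12b, the subunit shared by IL-12 and IL-23, had 1.98, 1.68 and 1.89 CPM in IL-23-ear libraries, against 2.29, 3.62 and 3.88 CPM in controls. All 3 values were lower, at -0.81 (interval -1.65 to 0.02, edgeR adjusted p = 0.607). Il12rb2, the IL-12 receptor chain, was at -0.69 and Il12a, the IL-12 subunit, at -0.34, also without overlap and not called (edgeR adjusted p = 0.648 and 0.576). Of the 10 tested genes 3 lay lower and 1 higher without overlap, against 6.98% and 9.75% of all tested genes. The list median was 0.02, with 6 of 10 above 0. Il23a, the subunit particular to IL-23, had 0, 0 and 3 counts in IL-23-ear and 2, 0 and 9 counts in control libraries and was not tested.

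Signal carriers were measured tightly, with 8 of 9 intervals within 2-fold. Stat3 had 206.4, 231.1 and 220.4 CPM in IL-23-ear libraries, against 206.2, 230 and 223.5 CPM in controls, and its interval ran from -0.29 to 0.28. Jak2 stood at -0.13 (interval -0.34 to 0.08) and Tyk2 at -0.10 (-0.23 to 0.04). Stat4, the factor of IL-12 signalling that IL-23 also uses, had 50.9, 42.3 and 45.5 CPM in IL-23-ear libraries, against 38.1, 40.4 and 34.9 CPM in controls. Its groups did not overlap, at 0.29 ± 0.11 (SE, edgeR adjusted p = 0.448). Socs3, the feedback inhibitor that Stat3 induces, was at -0.09 (interval -0.64 to 0.45). Across 15 genes that Stat3 and acute inflammation are known to induce, none was called, 11 lay above 0 and 13 had intervals within 2-fold.

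Regulators of type 17 cells were well measured, and most of their secreted products lay near the detection floor. Of 14 regulators none was called and 12 had intervals within 2-fold. Ccr6, the chemokine receptor of type 17 cells, also carried by B cells, had 31.7, 36.2 and 30.9 CPM in IL-23-ear libraries, against 41.4, 41.3 and 40.6 CPM in controls (-0.32, edgeR adjusted p = 0.643). Of 13 effector genes 6 were tested. Il17a had 0 counts in all 14 libraries, and Il22 had 0 in each IL-23-ear and control library. Il17f had 0, 3 and 0 counts in IL-23-ear and also 0, 3 and 0 in control libraries. Csf2, the myeloid growth factor made by type 17 cells, had 4, 7 and 0 counts in IL-23-ear and 12, 6 and 7 in control libraries. A gene at 0 may be present at up to 3 counts per library, or 0.0783 to 0.0856 CPM in IL-23-ear and 0.0777 to 0.0960 CPM in control libraries; the floor covers counting error only. Il17ra, the receptor that responding cells carry, was at 0.02 with an interval of -0.16 to 0.19. Of 5 tested γδ T cell genes none was called and 3 had intervals within 2-fold. Scart2, a scavenger receptor of γδ T cells, was lowest by p at -0.80 (edgeR adjusted p = 0.689).

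**Figure D4:**
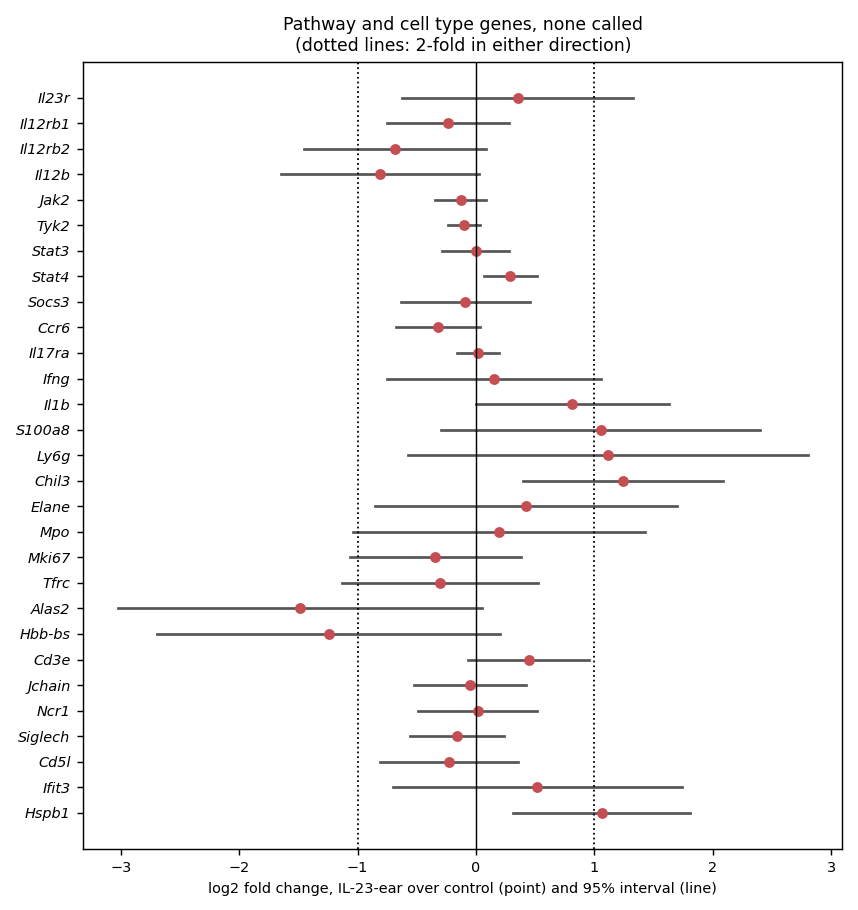
Log2 fold change of IL-23-ear over control (points) with 95% intervals (lines) for IL-23 pathway and cell type genes, none of them called; dotted lines mark 2-fold. The line of Stat3 runs from -0.29 to 0.28 and that of Hbb-bs from -2.69 to 0.21.

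B cell genes had narrow intervals and those of other lymphocytes were wider. All 18 B cell genes had intervals within 2-fold and 16 within 1.5-fold, with a median of -0.01 and a median bound of 1.25-fold. For T cell genes that bound was 1.73-fold. T cell genes lay higher without any call: all 22 were above 0, with a median of 0.33, 6 at an unadjusted p under 0.05, 12 without overlap between groups and 18 with intervals within 2-fold. Over all tested genes 52.5% lay above 0, 5.72% were higher at that unadjusted p, 9.75% were higher without overlap and 79.9% had intervals within 2-fold. Lat, the adaptor of the T cell receptor, had 145.8, 125.3 and 141.1 CPM in IL-23-ear libraries, against 104.2, 94.56 and 80.75 CPM in controls, at 0.56 ± 0.18 (SE, edgeR adjusted p = 0.381). Cd3e was at 0.44 and Cd8a at 0.31, with intervals of -0.07 to 0.96 and -0.26 to 0.87. The T cell median was 0.22 without control 5 and 0.455 without control 2. The count at an unadjusted p under 0.05 was 1 without IL-23-ear 3 or without control 5, 2 without control 4, 3 without IL-23-ear 1, 4 without IL-23-ear 2, 11 without control 2, and 3 with the length trend removed. Of 12 regulatory T cell and checkpoint genes 10 had intervals within 2-fold (Foxp3 at 0.24), of 16 NK and cytotoxic genes 14 (Ncr1 at 0.02), of 18 plasma cell genes 16 (Jchain at -0.05), and of 13 germinal centre genes 9.

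Antigen presentation genes were also closely bounded. All 14 MHC class I genes had intervals within 2-fold, with a median of 0.22 (0.13 without control 2). In 7 of them IL-23-ear was higher without overlap, against 9.75% of all tested genes. All 10 MHC class II genes also had intervals within 2-fold, with a median of 0.16. H2-Aa, a class II chain, had 1118, 1298 and 1280 CPM in IL-23-ear libraries, against 1125, 1051 and 1054 CPM in controls (edgeR adjusted p = 0.498). Type I interferon response genes were wider. Of 25 tested, 24 lay above 0 with a median of 0.41, 4 had intervals within 2-fold and none was called. Ifit3 had 163.5, 398.2 and 281.5 CPM in IL-23-ear libraries, against 82.83, 289.2 and 216.5 CPM in controls, so both groups spread widely and overlapped. The list median was 0.15 without control 2, the lowest control, and 0.19 without IL-23-ear 2. Of 19 interferon gamma response genes 17 lay above 0, with a median of 0.175 and 16 intervals within 2-fold, but without control 2 the median turned to -0.04, with 8 of 19 above 0, and without IL-23-ear 2 it was 0.05.

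In the neutrophil, erythroid and heat shock lists the group difference moved with single libraries. Of 21 mature neutrophil genes none was called, 19 lay above 0 with a median of 0.67, and 5 had intervals within 2-fold. S100a8, the calprotectin subunit of neutrophils, had 13.5, 53.5 and 12.1 CPM in IL-23-ear libraries, against 12.6, 11.5 and 14.0 CPM in controls, and only IL-23-ear 2 stood apart. The list summed to 557.9 CPM in IL-23-ear 2, to 177.4 and 180.4 CPM in the other IL-23-ear libraries and to 148.6 to 204.8 CPM in controls. Without IL-23-ear 2 the median was 0.03 and S100a8 was at -0.0036. Chil3, a chitinase-like protein of neutrophils and macrophages, had 12.8, 29.6 and 12.1 CPM in IL-23-ear libraries, against 9.61, 6.11 and 7.33 CPM in controls, without overlap (1.24 ± 0.39, SE, edgeR adjusted p = 0.394), and was at 0.68 without IL-23-ear 2. The 11 tested neutrophil progenitor genes had a median of 0.26, and of -0.42 without IL-23-ear 2. The same library held 34.2 CPM of the skeletal muscle list, against 4.899 to 8.21 CPM in the other 5.

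Erythroid genes varied widely between libraries. All 29 lay below 0, with a median of -0.93, none was called, none had an unadjusted p under 0.05 and 1 interval lay within 2-fold, so the median bound was 5.57-fold. Their sum was 8972, 11850 and 2988 CPM in IL-23-ear libraries 1, 2 and 3, against 30760, 14960 and 10440 CPM in controls 2, 4 and 5. The groups overlapped, and IL-23-ear 3 was lowest. Hbb-bs, the adult β-globin, had 3707, 4626 and 1218 CPM in IL-23-ear libraries, against 12620, 6142 and 3855 CPM in controls, with an interval of -2.69 to 0.21. Alas2, the erythroid enzyme that starts haem synthesis, was at -1.49 (interval -3.03 to 0.05, edgeR adjusted p = 0.629), and the 11 haem synthesis genes had a median of -0.36 with 5 intervals within 2-fold, a median that was -0.12 without control 5 and -0.22 without IL-23-ear 3. Without IL-23-ear 3 the erythroid median was -0.51, and without IL-23-ear 2 it was -1.51 with 7 genes lower at an unadjusted p under 0.05.

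Heat shock genes, chaperones that cells make under stress and during tissue handling, lay higher in the IL-23-ear group. All 11 were above 0 with a median of 0.78, 6 at an unadjusted p under 0.05 (against 5.72% of all tested genes), and none was called. Their sum was 3905, 4496 and 8316 CPM in IL-23-ear libraries, against 2695, 3205 and 4654 CPM in controls. Hspa1b, an inducible Hsp70 whose reads cannot be cleanly parted from those of its near copy Hspa1a, had 12.3, 9.70 and 150.5 CPM in IL-23-ear libraries, against 5.74, 6.69 and 19.4 CPM in controls. IL-23-ear 3 stood apart; without it the list median was 0.13, 9 of 11 lay above 0 and none had an unadjusted p under 0.05. That count was 1 without control 2, 2 without control 4 and 9 without any 1 of IL-23-ear 1, IL-23-ear 2 and control 5. The same library had the lowest erythroid sum, and the part of either in other results was not tested.

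**Figure D5:**
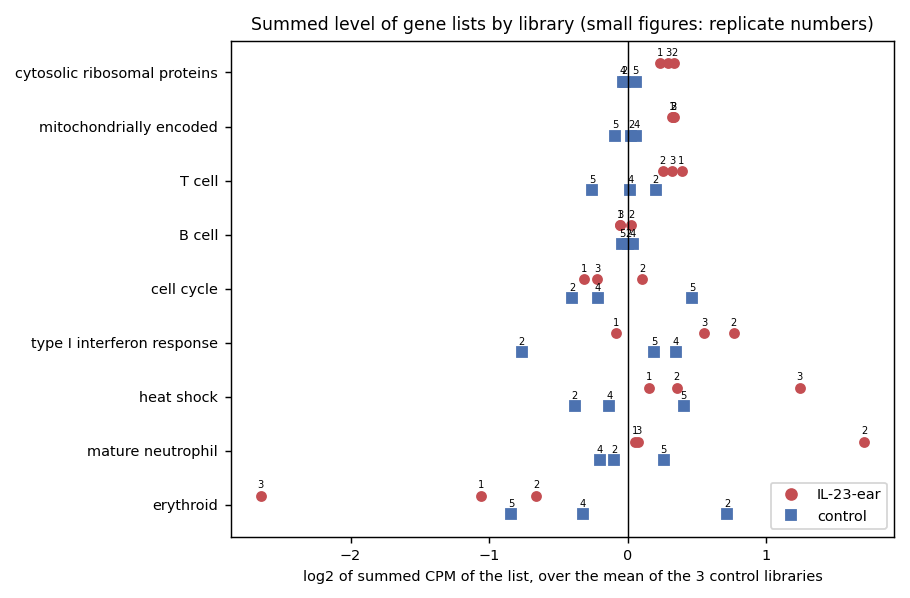
Summed CPM of 9 gene lists in each IL-23-ear (circles, upper row) and control library (squares, lower row), as log2 over the mean of the 3 control libraries (horizontal axis); small figures are replicate numbers. IL-23-ear 2 stands apart in the mature neutrophil list and IL-23-ear 3 in the heat shock and erythroid lists.

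Other lists held no called gene either, against 0.0528% of all tested genes called and 79.9% with intervals within 2-fold. Intervals lay within 2-fold in all 15 red pulp macrophage genes, all 13 stem and progenitor genes, all 16 cholesterol synthesis genes and all 16 genes of the unfolded protein response. The last had a median of 0.26, led by Dnajb9, a chaperone of the endoplasmic reticulum, at 0.37 (edgeR adjusted p = 0.329), and that median was 0.13 without control 2 and 0.39 without control 5. They lay within 2-fold in 24 of 30 cell cycle genes, with a median of -0.19 and Mki67, the proliferation marker, at -0.34 (interval -1.07 to 0.38). Without control 5 the cell cycle median turned to 0.125, with 25 of 30 above 0, and with any other library left out it lay between -0.385 and -0.118. The counts were 12 of 14 for monocytes, 5 of 6 for marginal zone macrophages, 16 of 17 for conventional and 9 of 11 for plasmacytoid dendritic cells, 11 of 14 for complement and Fc receptors, and 18 of 21 for stroma and endothelium. They were 13 of 16 for immediate early genes, 15 of 16 for clock genes, 7 of 14 for glucocorticoid response genes, 9 of 14 for megakaryocytes and platelets, and 5 of 15 for eosinophils, basophils and mast cells. Of 23 inflammatory cytokine and chemokine genes 11 had intervals within 2-fold, and Il1b had 18.9, 17.3 and 46.6 CPM in IL-23-ear libraries, against 13.7, 16.8 and 16.6 CPM in controls (edgeR adjusted p = 0.583).

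Set directly against the imiquimod groups, with the same IL-23-ear libraries, the spleens of IL-23-ear mice differed widely. The imiquimod groups also differed widely from controls: 3219 genes passed between imiquimod-ear and control spleens and 9071 between imiquimod-dorsal and control spleens. Against imiquimod-ear, 2623 genes (17.3%) passed, 1070 higher and 1553 lower in IL-23-ear, a count that was 4463 without imiquimod-ear 5, 1101 to 1654 without any 1 of IL-23-ear 1, 2 and 3 and imiquimod-ear 1 and 3, and 1247 in a fit of the 2 groups alone. Against imiquimod-dorsal, 8651 genes (57.1%) passed, 4107 higher and 4544 lower. All 30 cell cycle genes were lower in IL-23-ear than in either imiquimod group: Mki67 averaged 132 ± 35.1 CPM in IL-23-ear (n = 3), against 550 ± 206 in imiquimod-ear and 1809 ± 309 in imiquimod-dorsal spleens (SD, n = 4 each). Control spleens averaged 168 ± 49.5 CPM of Mki67 (SD, n = 3). Of 25 type I interferon genes 23 were higher than in imiquimod-ear and 24 than in imiquimod-dorsal, and of 22 T cell genes 18 and all 22 were. The interferon list summed to 3681 to 6637 CPM in IL-23-ear and 2303 to 4969 CPM in control libraries. Its sum was 843 to 1833 CPM in imiquimod-ear and 574.2 to 745.3 CPM in imiquimod-dorsal libraries. The T cell list summed to 3509 to 3850 CPM in IL-23-ear and 2466 to 3383 CPM in control libraries. Its sum was 1730 to 2926 CPM in imiquimod-ear and 714.9 to 844.7 CPM in imiquimod-dorsal libraries. All 18 plasma cell genes were lower than in imiquimod-ear, where Jchain, which links the units of secreted IgM and IgA, averaged 949 ± 230 CPM in IL-23-ear and 2707 ± 476 CPM in imiquimod-ear spleens. The plasma cell list summed to 11900 to 14180 CPM in IL-23-ear, 11170 to 13040 CPM in control and 26080 to 37280 CPM in imiquimod-ear libraries. Phykpl was lower in IL-23-ear than in both, at -0.57 against imiquimod-ear and -1.07 against imiquimod-dorsal (edgeR adjusted p = 0.00565 and 4.16e-06). Of the 7 ribosomal and mitochondrial genes that rose against controls, mt-Co2 also passed against imiquimod-ear (0.21, edgeR adjusted p = 0.0214) and the other 6 did not. All 7 passed against imiquimod-dorsal, with edgeR adjusted p-values of 0.000111 for Rps24 to 0.0299 for mt-Nd3. Of all 79 ribosomal protein genes, 11 were called higher and 9 lower than in imiquimod-dorsal, with a median of 0.02. Of the 11 listed mitochondrially encoded genes 8 were called higher. The 7 genes were also higher in imiquimod-ear than in the same controls (edgeR adjusted p = 0.00288 to 0.0200). In imiquimod-dorsal spleens all but Rps24 were higher than in controls (edgeR adjusted p = 0.00404 to 0.0333, and 0.698 for Rps24). Ribosomal protein genes took 6.24% to 6.63% of the counts in imiquimod-ear and 5.15% to 5.52% in imiquimod-dorsal libraries, where haemoglobin genes took 6.69% to 10.42%. In TMM-scaled CPM the ribosomal list summed to 57470 to 65850 in imiquimod-ear and 58910 to 61870 in imiquimod-dorsal libraries. That sum was 58500 to 62850 CPM in IL-23-ear and 48570 to 51790 CPM in control libraries.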

How the data were processed

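Poly(A) RNA of whole spleen was sequenced in pairs of 150-base reads from libraries without strand, per the labels' protocols, so a gene and an overlapping antisense gene share reads. The deposited table holds raw read counts, 1 per gene and library, as its whole numbers show. The names fastp 0.23.2, HISAT2 2.2.1, featureCounts 2.0.3 of Subread, StringTie 2.2.1 and DESeq2 1.38.3 and the build GRCm39 appear without roles, per the submitters' processing notes. The handling of multi-mapping reads is not given in the sources used here.

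Entries without a gene name (624, holding 0.588% to 0.674% of the counts in the 6 libraries) entered neither library sizes nor the tests of named genes. Counts of all 14 libraries entered 1 edgeR 4.0.16 fit in R 4.3.3 with group as the factor (TMM, filterByExpr minimum count 10, robust quasi-likelihood test, 10 residual degrees of freedom, common biological coefficient of variation 18.7%), and p-values were adjusted after Benjamini and Hochberg over 15159 genes, with a threshold of 0.05. Intervals at 95% used the quasi-likelihood standard error and the moderated degrees of freedom (median 13.8); 52 genes with a group at 0 have none and count as not within any fold. Names and lengths (of the Ensembl canonical transcript) are from GENCODE mouse release 39, in which 22101 of 22105 Ensembl genes were found. The procedure was checked on simulated counts.

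No library was a duplicate: counts of replicates gave chi-square values of 23.1 to 135.5 for each degree of freedom. Exact permutation of 3 against 3 libraries cannot go below p = 0.1, so single values were not tested that way. Named genes are all called genes, the next by unadjusted p up to 20 in all, provided their mean log2 CPM reached 1, the member of each list with the smallest p and a set named whatever its result. Further genes are named as examples of a list or since they stand apart, after their values were seen. Members, lists and tests were chosen with earlier results of these data known. Alternatives were DESeq2 1.42.0, limma-voom (limma 3.58.1), RLE size factors, no filter, no robust estimate, the compared groups alone, a replicate block, haemoglobin and immunoglobulin genes out, each library left out, and, added after seeing the data, the length trend removed and mitochondrial and ribosomal genes out.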

Additional observations from a re-analysis of the deposited data

How the results depend on the processing

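The share of genes with an interval within 2-fold was 66.6% with no filter on low counts and 73.3% to 83.0% in all other fits, the median bound was 1.34-fold to 1.48-fold, and 9281 genes lay within 1.5-fold. Genes called between IL-23-ear and control were 8 in the fit reported and 132 with DESeq2 (108 higher, 24 lower, 44 of them ribosomal and 10 mitochondrial), 14 with limma-voom, 12 without imiquimod-ear 5 in the fit and 9 without haemoglobin and immunoglobulin genes; each of these held all 8. The count was 0 in the compared groups alone, with RLE size factors, with no filter, with no robust estimate, with the replicate block, with the length trend removed and without mitochondrial and ribosomal protein genes. At an unadjusted p under 0.05 these 7 fits held 952 to 1456 genes. Leaving out 1 library gave 0 to 1, with 788 to 1540 at an unadjusted p under 0.05; the 1, without control 5, was Gm49380, a gene model outside the 8 (edgeR adjusted p = 0.0162, against 0.648 with all libraries). Adjusted p-values of the 8 ran up to 0.784 over these alternatives, while their direction did not turn in any. Scaling by RLE moved the median of all genes by -0.01.

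Genes called between IL-23-ear and imiquimod-ear were 1247 with the compared groups alone, 1261 with the replicate block, 4463 without imiquimod-ear 5, and 1101 to 4463 with 1 library left out; calls against imiquimod-dorsal stayed between 7660 and 8947. The correlation of deviations from group means between same-numbered libraries had a median of -0.05 over 13 pairs (-0.241 to 0.183), against 0.01 over 60 other pairs. IL-23-ear and control share only number 2, so these values cannot settle whether replicate numbers pair the libraries. With 3 libraries a group, genes under 1 CPM are limited by depth and spread, where the median bound was 3.42-fold. The causes of these shifts were not tested.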

Other observations

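A few genes with large but uncalled differences were picked after their values were seen. Ccl21d, one of several nearly identical mouse genes for the T cell zone chemokine CCL21, had 27.9, 20.5 and 24.1 CPM in IL-23-ear libraries, against 5.74, 4.26 and 2.98 CPM in controls. The groups did not overlap, at 2.48 ± 0.73 (SE, edgeR adjusted p = 0.379), but reads shared with the near copies make the gene uncertain. Imiquimod-ear libraries held 6.87, 2.30, 2.21 and 15.4 CPM of it. Tnfsf9, the ligand of the costimulatory receptor 4-1BB, had 2.35, 2.37 and 6.99 CPM in IL-23-ear libraries, against 1.53, 1.66 and 1.37 CPM in controls (1.36 ± 0.41, SE, edgeR adjusted p = 0.359), and IL-23-ear 3 stood apart. Map6d1 and Zfp184 were lower without overlap, at -1.21 and -1.19 (edgeR adjusted p = 0.180 and 0.217). Krt83, a hair keratin, had 0.391, 0.485 and 0.278 CPM in IL-23-ear libraries and 0 in each control library (edgeR adjusted p = 0.0871). Imiquimod-ear libraries held 0.0528, 0.115, 0.392 and 0.226 CPM of it, and imiquimod-dorsal libraries 0.142, 0.352, 0.293 and 0.317 CPM. These levels are low, beside a floor of 0.0777 to 0.0960 CPM in control libraries.

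Among 467 assembled loci without a gene name that had enough counts to test, none was called by edgeR's quasi-likelihood test, 24 had an unadjusted p under 0.05 and the smallest adjusted p was 0.170.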
